A study of Mus musculus with 82 samples.

Results

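Tap1, Tap2, Psmb9, Psmb10 and H2-M3 are 5 genes of antigen processing, chosen by their symbols in the platform annotation, where each had 1 probe among 21936. They were followed through liver RNA of BXD mice on 2-colour microarrays, as 5 of the 21915 features tested (probes of the same symbol averaged). BXD strains are recombinant inbred lines, each a fixed mosaic of the genomes of C57BL/6J (B6) and DBA/2J (D2). On 72 arrays BXD liver, of males on 32 and of females on 40, shared the slide with a mix of B6 embryo RNA (day 17.5), and on 2 arrays B6 male liver met that mix. Another 6 arrays compared B6 with D2 liver of the same sex directly, and on 2 more both RNAs were labelled as enriched. The array labels name 17 BXD strains and both sexes, with no genetic change or treatment. The series description names 18 strains, 3 unfasted males per strain and an age of 10 to 20 weeks, and does not give an age for the females. The sources used here do not say if mice were pooled, so the p-values measure the spread between strains or arrays, and part of that spread may be technical.

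Cells show fragments of their own proteins on MHC class I molecules. The proteasome cuts the proteins, and in many cells interferon-gamma replaces its catalytic subunits by those of the immunoproteasome, among them Psmb9 and Psmb10. The fragments are carried into the endoplasmic reticulum by the transporter TAP, a dimer of Tap1 and Tap2, and loaded there onto class I molecules. H2-M3 is a nonclassical class I molecule known for presenting peptides that begin with formylmethionine, as bacterial peptides do. Psmb9, Tap1 and Tap2 lie side by side in the class II region of the mouse MHC on chromosome 17, with Psmb8, which was not analysed here, between Tap1 and Tap2. H2-M3 lies farther along chromosome 17, and Psmb10 on chromosome 8.

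The DNA upstream of the members is shown because Psmb9 and Tap1 share it while their values below differ. In RefSeq's promoter windows (GRCm38.p6), found for 4 of the 5 members and not for Tap2, Psmb9 and Tap1 pointed away from each other with starts 226 bases apart. The windows run from 250 bases before to 50 bases after a start, and those of Psmb9 and Tap1 share 275 of their 300 bases. The 225 bases between these starts (chr17:34187331-34187555, plus strand, read towards Tap1) are followed here by the 250 bases before the starts of Psmb10 (chr8:105938393-105938642, minus strand) and H2-M3 (chr17:37269984-37270233, plus strand). Each is written 5′ to 3′, with matches to the searched motifs in capitals.
Tap1 and Psmb9: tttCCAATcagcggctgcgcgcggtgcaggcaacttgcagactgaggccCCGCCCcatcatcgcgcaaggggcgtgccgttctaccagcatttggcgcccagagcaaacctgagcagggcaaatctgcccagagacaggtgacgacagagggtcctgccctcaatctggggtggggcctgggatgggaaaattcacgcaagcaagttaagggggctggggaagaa
Psmb10: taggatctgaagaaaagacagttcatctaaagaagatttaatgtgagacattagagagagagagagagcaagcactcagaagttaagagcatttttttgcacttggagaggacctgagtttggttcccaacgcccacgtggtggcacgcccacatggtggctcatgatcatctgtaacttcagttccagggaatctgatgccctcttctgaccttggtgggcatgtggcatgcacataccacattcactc
H2-M3: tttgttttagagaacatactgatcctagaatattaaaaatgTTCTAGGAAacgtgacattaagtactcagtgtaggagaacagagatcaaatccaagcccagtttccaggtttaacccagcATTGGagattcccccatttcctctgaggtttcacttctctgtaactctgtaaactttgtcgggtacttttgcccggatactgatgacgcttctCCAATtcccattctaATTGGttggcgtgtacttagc

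A set of 4 short patterns were searched on both strands of the 300-base windows, and no match overlapped another. The core of the interferon-stimulated response element (GAAA, 2 bases of any kind, GAAA) was in 0 of the 4 member windows and in 3.43% of 32817 mouse windows of the same length. The core of the interferon-gamma activated sequence, TTCNNNGAA, was in the window of H2-M3 alone and in 8.29% of all windows. The GC box GGGCGG, written on the other strand as CCGCCC, was a single site in the stretch shared by Tap1 and Psmb9, and 35.6% of all windows held one. A CCAAT box, or ATTGG on the other strand, was in the shared stretch and at 3 places before H2-M3, against 37.4% of all windows. The Psmb10 window held no match to any of the 4. These are matches of letters, not measured binding.

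Each value is a log2 ratio, liver over embryo mix or B6 over D2, computed from the deposited log ratios on the reading that these are log10. The base is not stated, and every fold below rests on that reading. The dye labels, the same in both channels, do not settle which way a ratio runs. Ratios are given in the direction in which hepatocyte markers lie above embryonic markers, which was the same on 74 of 74 arrays. The measured 10 of 20 hepatocyte markers had medians of 3.79 to 4.83 per array and the measured 10 of 15 embryonic markers -4.16 to -2.09. The direction is therefore likely, and it is not a finding. Array medians over all features ran from -0.002 to 0.12. Of the 17 strains, 13 had arrays of both channel orientations in both sexes, while BXD8, BXD9, BXD14 and BXD27 had liver in channel 1 only. Orientation mattered for the members: within a strain and sex Tap1 read lower with liver in channel 1 than in channel 2 (mean difference -0.42, below 0 in 25 of 26 pairs), and Psmb10 read higher (0.39, above 0 in 24 of 26). Over all features the median absolute difference was 0.21, so the 13 strains with both orientations carry the tests across strains. Sex-linked genes followed the labels on average, but in BXD27 the female exceeded the male in both measured Y-linked genes (Eif2s3y 0.10, Uty 0.38), and 1 of them did in BXD8 (Eif2s3y, 0.12), BXD18 (Uty, 0.007) and BXD28 (Uty, 0.54). The X-linked Eif2s3x and Ddx3x read higher in the female in 17 of 17 strains. The labels give no date or slide, so no batch was tested.

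Psmb9 stood highest of the 5 above the embryo mix. Of the immunoproteasome genes, Psmb9 averaged 1.76 ± 0.56 (SD, n = 13 strains), a 3.38-fold ratio, and Psmb10 averaged 0.999 ± 0.47, a ratio just under the size limit of 1 that a call required. The transporter genes were nearer to the mix, Tap1 at 0.34 ± 0.21 and Tap2 at 0.64 ± 0.27, and H2-M3 lay at 0.60 ± 0.16. All 5 were higher in liver by limma's test alone (adjusted p = 6.85e-09 for Psmb9, 9.12e-07 for Psmb10, 2.26e-05 for Tap1, 3.38e-07 for Tap2 and 2.07e-09 for H2-M3). That share means little, because 83.9% of all features differed from 0 by this test, 48.3% upward and 35.6% downward. Tap1 did not pass this test on arrays with liver in channel 1 only (0.14, limma adjusted p = 0.0864). With the size limit, 13.9% of all features were called, 4.69% upward and 9.17% downward, and Psmb9 was the 1 member among them. Psmb10 also passed the limit in 10 of 26 settings, for example at 1.21 in female arrays only. A ratio to the mix compares 1 gene between tissues and does not say which gene is more abundant. In whole tissue a change in RNA per cell cannot be told apart from a change in how many cells carry it.

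Single arrays show how firmly each gene lay above the mix. Psmb9 ran from 0.40 over a median of 1.74 to 3.69 over the 72 BXD arrays, and was above 0 on all 72. Psmb10 ran from -0.22 over 1.0 to 2.37 and was above 0 on 70 of 72. Tap1 ran from -0.67 over 0.38 to 0.96, with 14 of the 72 arrays at or below 0. Tap2 (0.07 to 1.49) and H2-M3 (0.14 to 1.20) were above 0 on every BXD array. Tap1 was thus the member whose arrays most often fell on the embryo side, but this count went with orientation. Apart from a BXD18 female array (-0.0032, liver in channel 2), all Tap1 arrays at or below 0 had liver in channel 1. By strain Tap1 was above 0 in 12 of 13 strains, and each of the other 4 genes in 13 of 13.

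**Figure D1:**
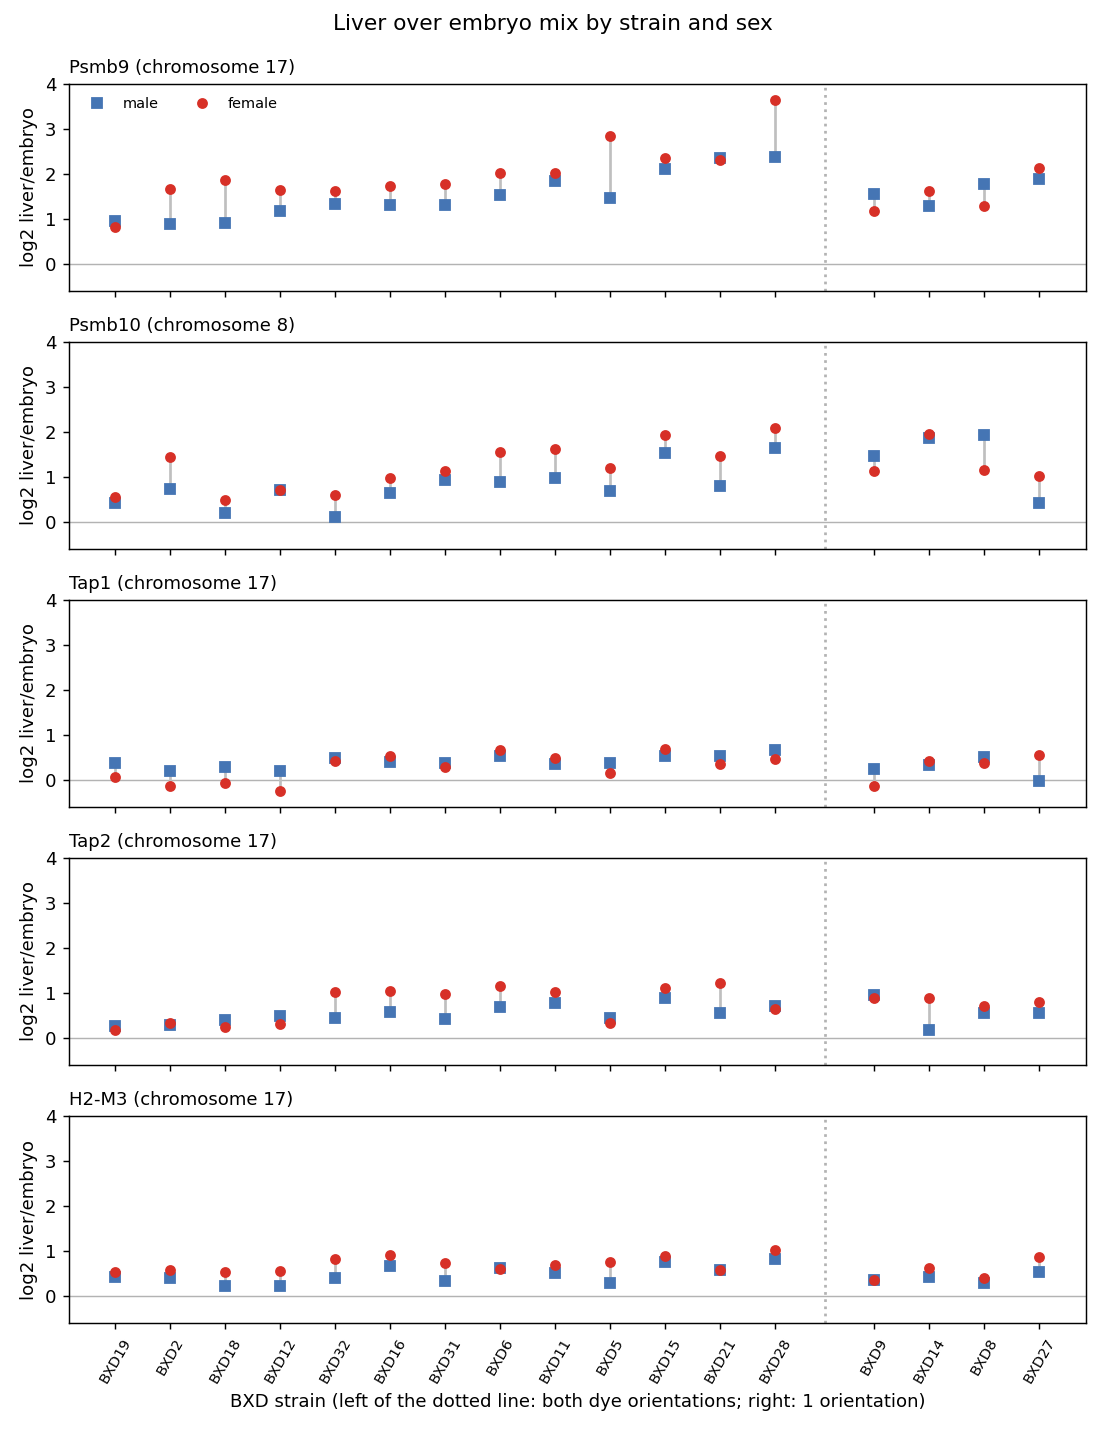
Log2 ratio of liver over the embryo mix (y axis) of each member in males (squares) and females (circles) of each BXD strain (x axis, ordered by the Psmb9 mean, with the 4 strains of 1 orientation at the right). Psmb9 and Psmb10 vary most, and BXD28 is the highest strain with both orientations for each of them; Tap1 stays between -0.24 and 0.68.

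Set against Psmb10 in the same arrays, the chromosome 17 members did not all lie on the same side of it. These tests compare mean ratios and do not say if the genes vary together across strains. Psmb9 exceeded Psmb10 by 0.76 ± 0.34 and did so in 13 of 13 strains (sign-flip permutation test, 2-sided, adjusted p = 0.00216 over 12 such tests). Tap1 lay 0.65 ± 0.39 below Psmb10, in 12 of 13 strains (permutation adjusted p = 0.00252). Tap2 (-0.36 ± 0.39, permutation adjusted p = 0.0149) and H2-M3 (-0.40 ± 0.37, permutation adjusted p = 0.0106) each lay below it in 11 of 13 strains. The size of these gaps depended on orientation. With liver in channel 1 only, Psmb10 averaged 1.19, Tap1 0.14, Tap2 0.72 and H2-M3 0.68. In channel 2 only the means lay closer together, at 0.80 for Psmb10, 0.55 for Tap1, 0.55 for Tap2 and 0.51 for H2-M3. Psmb9 and Tap1, whose starts share the stretch printed above, therefore lay on opposite sides of Psmb10 in liver over embryo.

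The same fit placed other genes of the pathway in lists, beside 4.69% of all features called higher and 9.17% called lower. Of 8 listed transport and loading genes 4 were measured, Tap1 and Tap2 among them, and 0 passed the size limit (median 0.43, against 0.07 over all features). Of 5 measured MHC class I genes 2 were higher, the classical H2-D1 at 2.83 and the lipid-presenting Cd1d1 at 3.30. Of 4 measured subunits of the constitutive core proteasome 1, Psma7, was higher (1.16; list median 0.40), and of 7 of the regulatory particle 0 passed (median 0.06). Of 14 interferon-induced genes 5 were higher and 0 lower (median 0.84), led by the GTPases Iigp1 at 2.53 and Tgtp1 at 1.42. Of 8 genes of interferon signalling 3 were higher (Irf2 1.20, Irf9 1.10, Irf7 1.02) and the receptor gene Ifngr1 was lower (-1.42). Of 14 further genes of the MHC region 0 were higher and 1, the collagen gene Col11a2, was lower (-1.71; list median -0.28). Of 6 class II genes 1, H2-Oa, was higher (1.35).

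B6 males had a low Psmb9 ratio. On the pair of B6 male arrays against the same mix, which was in no fit, Psmb9 averaged 0.65, below the males of all 13 BXD strains (lowest 0.89 in BXD2, median 1.32, highest 2.36 in BXD28). Tap1 at 0.15 was also below all 13 (lowest 0.19 in BXD12, median 0.38, highest 0.66 in BXD28). Tap2 at 0.26 was above 1 of 13 (BXD19, also 0.26), H2-M3 at 0.35 above 4 and Psmb10 at 0.85 above 8. For Tap1 and Tap2 the margin to the lowest strain was smaller than the SD between replicates of a strain and sex (0.24 and 0.23). The counts of Tap1 and Tap2 therefore do not set the transporter genes apart from each other. For Psmb9 the margin, from 0.65 to 0.89, was only about as large as its SD between replicates (0.22). The value for B6 comes from 1 labelled replicate, so no test was made.

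**Figure D2:**
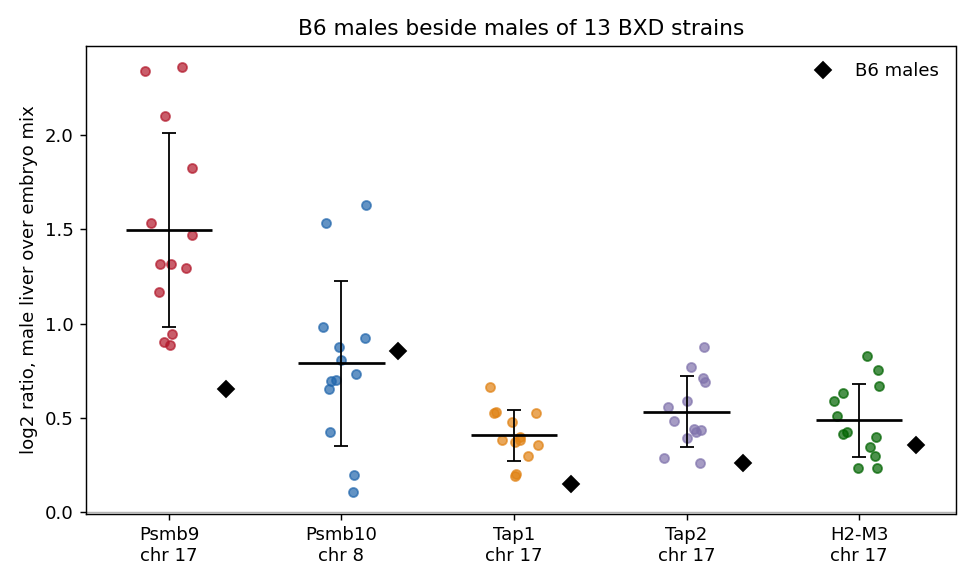
Log2 ratio of male liver over the embryo mix (y axis) for each member (x axis): circles are the 13 BXD strains with both orientations, bars their mean and SD, and diamonds the B6 males. The diamond lies under every circle for Psmb9, by about the SD between replicates, and for Tap1, by less than that SD. It is level with the lowest circle for Tap2 and among the circles for Psmb10 and H2-M3.

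Between strains, the proteasome genes differed and the other members did not pass the test. Psmb10 spanned 1.52, a 2.86-fold range, with an F of 17.6 that ranked 20 of 21915 features (moderated F over 13 strains with sex as a term, limma adjusted p = 0.00106). Psmb9 spanned 2.12, a 4.34-fold range, with an F of 7.02 that ranked 211 (limma adjusted p = 0.0350). Tap1 spanned 0.63, Tap2 0.78 and H2-M3 0.54, and they were not called (limma adjusted p = 0.188, 0.226 and 0.213). Of all features 1.2% were called. The wider range of Psmb9 came with a residual SD of 0.32 between the sexes of a strain, against 0.16 for Psmb10. The Psmb9 call was lost without any 1 of 7 strains, BXD2, BXD12, BXD15, BXD16, BXD19, BXD28 or BXD31, with adjusted p up to 0.107 and a range of 1.44 without BXD28. The Psmb10 call held without each strain in turn (adjusted p at most 0.00772), and was lost on arrays with liver in channel 1 only (0.0706).

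By strain mean, Psmb9 ran from BXD19 (0.88) and BXD2 (1.27) through BXD18 (1.38), BXD12 (1.40), BXD32 (1.47), BXD16 (1.51), BXD31 (1.54), BXD6 (1.78) and BXD11 (1.92). BXD5 (2.15), BXD15 (2.23), BXD21 (2.32) and BXD28 (2.99) followed. BXD28 stood 0.67 above BXD21, the largest step in this order. The step came from females, at 3.63 in BXD28 and 2.30 in BXD21, while males were level at 2.36 and 2.34. BXD19 was low in both sexes, at 0.94 in males and 0.81 in females. Of the 12 steps between neighbours 2 exceeded the residual SD, so most neighbouring strains did not differ beyond their spread.

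Psmb10 ordered the strains from BXD18 (0.34), BXD32 (0.35) and BXD19 (0.49) through BXD12 (0.70), BXD16 (0.81), BXD5 (0.94), BXD31 (1.03), BXD2 (1.08), BXD21 (1.14), BXD6 (1.22) and BXD11 (1.30). BXD15 (1.73) and BXD28 (1.86) came last. These highest strains were set off from BXD11 by a step of 0.43, and again 2 of 12 steps exceeded the residual SD. In BXD28 Psmb10 read 1.63 in males and 2.09 in females, and in BXD15 1.53 and 1.92. In BXD18 it read 0.20 and 0.49, and in BXD32 0.11 and 0.60.

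The transporter genes and H2-M3 kept narrower orders. Tap1 ran from BXD12 (-0.02), BXD2 (0.04) and BXD18 (0.11) to BXD28 (0.57), BXD6 (0.59) and BXD15 (0.61), and 0 of its 12 steps exceeded its residual SD of 0.15. Tap2 ran from BXD19 (0.22), BXD2 (0.32), BXD18 (0.33), BXD5 (0.39) and BXD12 (0.39) to BXD28 (0.68) and on to BXD15 (0.999). Its largest step, 0.28, lay between BXD12 and BXD28 and set 5 strains below the other 8. In females Tap2 read 0.17 to 0.65 in those 5 strains and BXD28, and 0.97 to 1.21 in the rest. In males these ranges overlapped (0.26 to 0.71 and 0.43 to 0.88). The female arrays of the lower set directly follow each other in the order of the samples. Strain and set of arrays therefore cannot be told apart for this split. H2-M3 ran from BXD18 (0.39) and BXD12 (0.40) to BXD16 (0.79), BXD15 (0.82) and BXD28 (0.93), with its largest step, 0.17, between BXD6 and BXD16. BXD15 and BXD28 were thus among the high strains of several members, and BXD18 among the low ones.

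The strain orders were compared between the sexes, whose arrays are separate apart from the shared reference, and all 5 genes passed by Pearson r. On arrays with liver in channel 2 only, 1 of the 5 did (Psmb10, r = 0.88, permutation adjusted p = 5.5e-04), while Tap1 (0.58), Psmb9 (0.61), Tap2 (0.39) and H2-M3 (0.44) did not. Psmb10 agreed best between males and females (Pearson r = 0.91, Spearman rho = 0.91, n = 13 strains, permutation adjusted p = 5e-05 over 5 genes, from the smallest p that 100000 permutations can give). Tap1 followed at r = 0.79 (rho 0.76), Psmb9 at 0.74 (rho 0.76), Tap2 at 0.67 (rho 0.68) and H2-M3 at 0.64 (rho 0.55, unadjusted permutation p = 0.0521 by rank), with permutation adjusted p from 0.00272 to 0.0198. Without the 2 strains farthest from the median, r was 0.84 for Psmb10, 0.80 for Tap1, 0.61 for Psmb9 and 0.62 for Tap2. For H2-M3 it fell to 0.29, so that relation rested on those strains. The share of all features that agree between the sexes was not computed, so the 5 of 5 does not set the members apart.

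Pairs on chromosome 17 and pairs with Psmb10 overlapped in how alike their strain orders were. The 6 pairs within chromosome 17 had r of 0.53 to 0.85 (median 0.67) and the 4 pairs with Psmb10 0.56 to 0.80 (median 0.65). The highest r was that of the transporter partners Tap1 and Tap2 (r = 0.85, rho = 0.80, n = 13 strains, permutation adjusted p = 0.0024 over 10 pairs). Within males alone this r was 0.58, and within females alone, where Tap2 split by set of arrays, it was 0.85. Psmb9 and Psmb10, on different chromosomes, had r = 0.80 and rho = 0.76 (permutation adjusted p = 0.00387), and r = 0.71 without the 2 farthest strains. Psmb9 and Tap1, neighbours with a shared upstream stretch, had r = 0.61 and rho = 0.67 (permutation adjusted p = 0.0357), and r = 0.57 without those 2 strains. Of the 10 pairs 8 passed, all but Tap2 with Psmb9 (r = 0.53, rho = 0.64, permutation adjusted p = 0.0601) and Tap2 with Psmb10 (r = 0.56, rho = 0.57, 0.0525). By rank all 10 passed (permutation adjusted p at most 0.0446). These counts do not set the members apart, since many other features had an r as high. By r with Tap1, of 21914 features, Tap2 ranked 28 and H2-M3 57, but Psmb9 ranked 1255 and Psmb10 1636. By r with Psmb10, Psmb9 ranked 179 and H2-M3 496. Without the 2 farthest strains Psmb10 with H2-M3 fell from r = 0.72 to 0.35, so that relation rested on those strains.

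Genes read on the same arrays share whatever those arrays share, so each pair was also taken with the first gene from males and the second from females. In this reading 2 of 10 pairs passed, Psmb9 in males with Psmb10 in females (r = 0.79, permutation adjusted p = 0.0177) and Tap2 in males with Psmb10 in females (r = 0.73, permutation adjusted p = 0.0257). Both hold Psmb10, and 0 of the 6 chromosome 17 pairs passed (r 0.52 to 0.61). The picture was another with the sexes exchanged, where 4 of the 6 chromosome 17 pairs passed, led by Tap1 in females with H2-M3 in males (r = 0.79) and with Tap2 in males (r = 0.78, permutation adjusted p = 0.0104 for both). There Psmb9 and Psmb10 had r = 0.67 (permutation adjusted p = 0.0325) and Psmb10 and H2-M3 r = 0.76 (0.0117), while Tap2 and Psmb10 had r = 0.33 (0.273). Within males alone 9 of 10 pairs passed, all 6 on chromosome 17 and 3 of the 4 with Psmb10. Within females alone 2 pairs passed, Tap1 with Tap2 and Psmb9 with Psmb10.

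**Figure D3:**
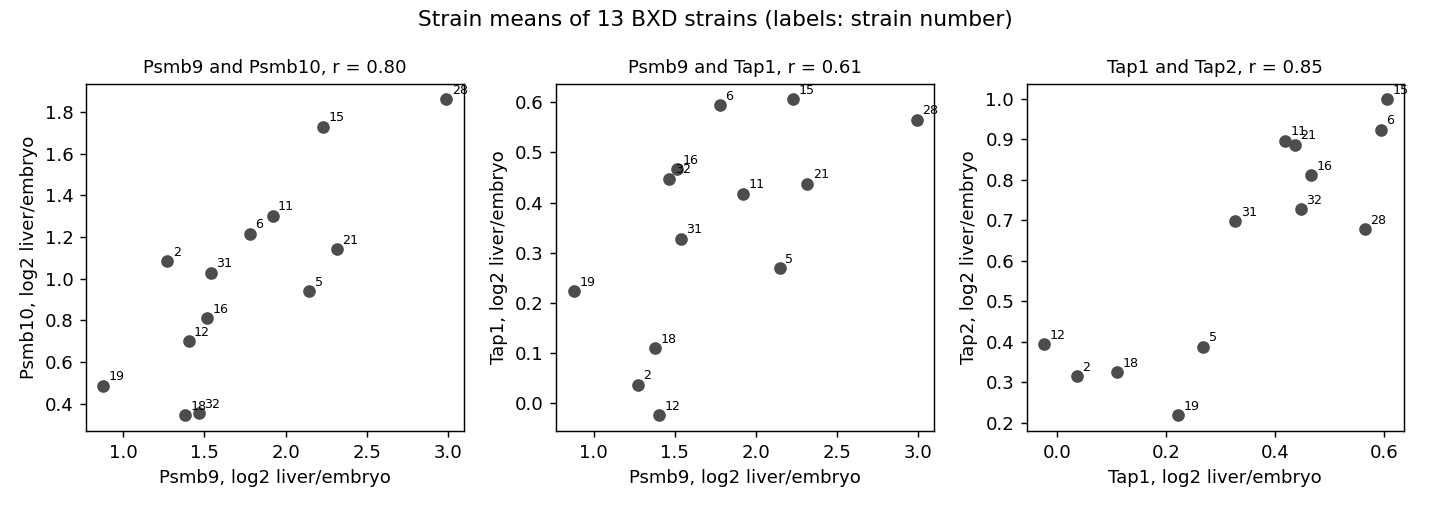
Strain means of the log2 ratio of liver over embryo mix for 3 pairs of members, with 1 point per BXD strain labelled by its number (13 strains). Psmb9 rises with Psmb10 (r = 0.80) and Tap1 with Tap2 (r = 0.85); BXD28 is the rightmost strain for Psmb9.

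The genes most like each member in their strain order were listed by Pearson r over the 13 strain means, as a description over points that share the reference and the arrays. For Psmb9 the nearest named genes were the interferon-induced GTPase Gbp3 (r = 0.92), the macrophage perforin-like gene Mpeg1 (0.90) and the interferon-induced Ifit3 (0.88). For Psmb10 they were the metalloproteinase Mmp19 (0.94), the peroxisomal membrane gene Pxmp2 (0.88) and the N-acetylglucosamine kinase Nagk (0.88). For Tap1 they were Tap2 (0.85), the DNA annealing helicase Smarcal1 (0.85) and the prostaglandin receptor Ptger2 (0.84). For Tap2 they were the lectin pathway protease Masp1 (0.93), Cideb (0.92), which acts on lipid droplets and lipoproteins, and Cpsf3 (0.90), which cleaves pre-mRNA ends. For H2-M3 they were the clathrin adaptor Ap1s1 (0.93), Pxmp2 (0.87) and the spliceosomal Snrpc (0.87). Unnamed features and clone names were left out of this listing, so other features lay closer. Among 21914 features Tap2 ranked 28, Smarcal1 30 and Ptger2 34 by r with Tap1, and Pxmp2 22 and Nagk 24 by r with Psmb10. Of the named genes listed, Gbp3 and Ifit3 are on the list of interferon-induced genes. Gbp3 was itself called between strains (range 2.36, limma adjusted p = 0.0176), and Ifit3 was not (range 1.24, limma adjusted p = 0.218).

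Over the 14 measured interferon-induced genes the median r was 0.66 with Psmb9, 0.54 with Psmb10, 0.48 with H2-M3, 0.39 with Tap1 and 0.31 with Tap2, while the medians over all features ran from -0.05 to 0.005. Single genes of this list spread widely, from -0.24 to 0.92 with Psmb9, -0.48 to 0.83 with Psmb10 and -0.70 to 0.79 with H2-M3. With Tap1 they ran from -0.56 to 0.83 and with Tap2 from -0.45 to 0.69. Ifi202b was the lowest with each member. Above 0 were 13 of 14 with Psmb9 and H2-M3, 12 with Psmb10, 11 with Tap1 and 9 with Tap2. Over 14 further genes of the MHC region the median r was 0.21 with Tap1, 0.07 with Tap2, 0.04 with H2-M3, -0.04 with Psmb10 and -0.10 with Psmb9. The 4 measured core proteasome subunits had a median r of 0.25 with Psmb9, 0.20 with Psmb10 and -0.39 with Tap2. Other genes of these lists called between strains were Gbp2b and Gbp3 among 14 interferon-induced genes, Irf1 among 8 signalling genes and the chaperone Calr among 4 transport and loading genes. None was called among 5 class I, 6 class II, 4 core proteasome, 7 regulatory particle and 14 further MHC region genes. Over these lists, members aside, limma called 4 of 61 genes, against 1.2% of all features. An unadjusted p under 0.05 was found for 24 of the 61, against 13.8% of all features. Markers of other cells moved along in part. The mean of 4 of 11 macrophage and Kupffer cell markers (Cd5l, Marco, C1qa and C1qb) ran from -0.02 in BXD31 to 0.61 in BXD28 and had r = 0.75 with Psmb10 and 0.62 with Psmb9. Taken singly these markers did not move alike. Their r ran from -0.14 to 0.80 with Psmb10 and from -0.37 to 0.71 with Psmb9, above 0 for 3 of 4 in each case. The mean of 4 of 11 lymphocyte markers (Cd3e, Cd4, Cd79a and Ptprc) ran from 0.22 to 0.43 and had r = 0.30 with Psmb10, 0.19 with Psmb9 and 0.69 with H2-M3. Single lymphocyte markers had r of 0.21 to 0.72 with H2-M3. The mean of 3 of 7 endothelial markers (Tek, Tie1 and Flt4), from -0.16 to 0.14, had r = 0.83 with Tap1 and 0.71 with Tap2. Single endothelial markers had lower r, 0.19 to 0.62 with Tap1 and 0.13 to 0.53 with Tap2. No marker of these lists was called between strains, and their part in the members' differences was not tested.

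Females had more of 4 of the 5 genes than males. Psmb9 was higher by 0.38 ± 0.51 (SD of 17 strain differences), 1.30-fold, in 13 of 17 strains (limma adjusted p = 0.0157). Psmb10 was higher by 0.30 ± 0.39, in 14 of 17 (0.0158), Tap2 by 0.22 ± 0.30, in 11 of 17 (0.0241), and H2-M3 by 0.21 ± 0.15, in 15 of 17 (6.77e-04). Tap1 differed by -0.09 ± 0.26, above 0 in 6 of 17 strains, and was not called (0.313). The test called 33.7% of all features, 16.5% as higher and 17.2% as lower in females. Without BXD8 and BXD27, the strains named above for their Y-linked genes on arrays of 1 orientation, the same 4 were called (Psmb9 0.45, Psmb10 0.35, Tap2 0.22, H2-M3 0.21). Tap2 lost its call with liver in channel 2 only (adjusted p = 0.114), in the 13 strains with both orientations (0.0582) and without BXD21 (0.0509). Among these 13 strains its difference was -0.18 to 0.05 in BXD2, BXD5, BXD12, BXD18, BXD19 and BXD28. In all others of the 13 it was 0.24 to 0.65. The female arrays of the strains named directly follow each other in the order of the samples. Whether strain or set of arrays made this split was not tested.

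The size of the difference by strain is a description, since no test compared it between strains. Replicates of a strain and sex had an SD of 0.20 to 0.24 in the 5 members, over the 5 groups with more than 1. Psmb9 ran from -0.50 in BXD8 over a median of 0.33 to 1.36 in BXD5, where males read 1.47 and females 2.83, and BXD28 stood close to BXD5 at 1.27. Psmb10 ran from -0.76 in BXD8 over 0.39 to 0.70 in BXD2. Tap2 ran from -0.18 in BXD12 to 0.71 in BXD14, Tap1 from -0.43 in BXD12 to 0.57 in BXD27, and H2-M3 from -0.02 in BXD6 to 0.46 in BXD5. In the 13 strains with both orientations the mean was 0.52 for Psmb9 and 0.42 for Psmb10, while in the other 4 it was -0.07 and -0.10. These means differed by -0.59 for Psmb9 (exact permutation p = 0.0294) and -0.52 for Psmb10 (exact permutation p = 0.0353), and neither passed after adjustment over the 5 members (0.0882 for both). This comparison was chosen after the values were seen.

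**Figure D4:**
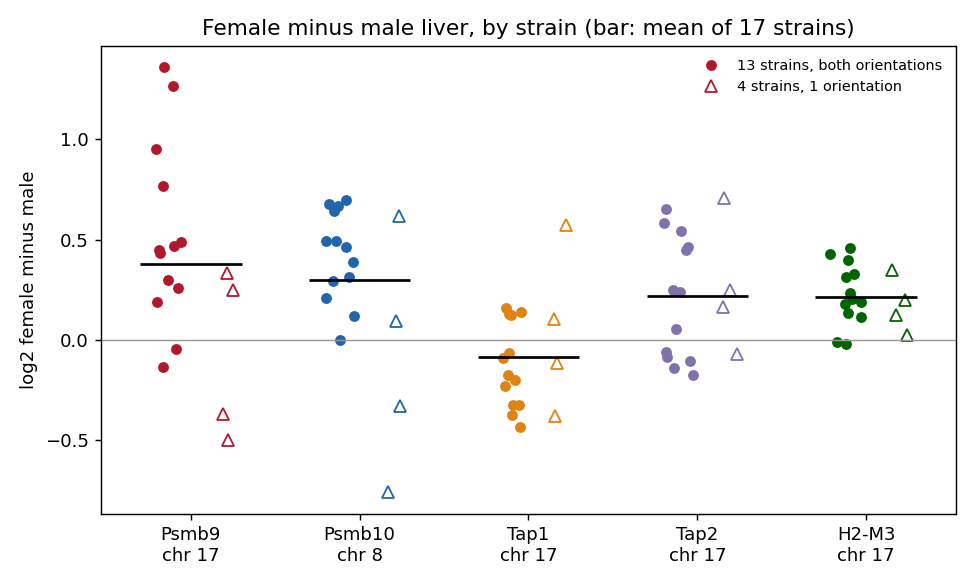
Female minus male difference of the log2 ratio (y axis) for each member (x axis), with 1 point per BXD strain: filled circles are the 13 strains with both orientations, open triangles the 4 with 1 orientation, and bars the mean of 17 strains. H2-M3 runs from -0.02 to 0.46, and for Psmb9 and Psmb10 the lowest points are triangles.

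Set against Psmb10, Tap1 was the 1 chromosome 17 member whose sex difference stood apart. It lay 0.39 ± 0.40 below that of Psmb10, in 15 of 17 strains (sign-flip permutation adjusted p = 0.00664). For Psmb9 (0.08 ± 0.44), Tap2 (-0.08 ± 0.43) and H2-M3 (-0.09 ± 0.40) no difference from Psmb10 was detected (permutation adjusted p = 0.460 each). Tap1 and its partner Tap2 thus did not share a call between the sexes, and Tap1 against Tap2 was not tested.

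Among related genes, the classical and lipid-presenting class I genes H2-D1 (0.28) and Cd1d1 (0.37) were higher in females, as were 3 of 4 core proteasome subunits (Psmb3 0.49, Psma2 0.49 and Psma7 0.45; list median 0.47 against 0.02 over all features). Of 7 regulatory particle genes 2 were higher (Psmd10 0.37, Psmd14 0.29). The proteasome activator gene Psme3 was lower (-0.13). The list counts here stand beside 16.5% of all features called higher and 17.2% called lower in females. Of 14 interferon-induced genes 6 were higher and 1 lower (median 0.27), with Gbp3 at 1.23 and Tgtp1 at 1.22 against Ifi202b at -0.60. Of 8 signalling genes Irf1 (0.32) and Ifngr1 (0.48) were higher, and Irf2 (-0.78) and Socs1, an inhibitor of cytokine signalling (-0.39), were lower. None of 6 class II genes was called. Of the 14 further MHC region genes 1 was higher (Ager 0.43) and 2 were lower (Hspa1a -0.60, Gabbr1 -0.33). Leukocyte markers differed too: the lymphocyte mean was higher in females by 0.08 (13 of 17 strains, from 0.13 to 0.48 in males and 0.23 to 0.64 in females). The macrophage mean was higher by 0.11 (12 of 17, from -0.10 to 0.73 in males and 0.03 to 0.85 in females). Cd3e (0.14) and Ptprc (0.22) of the first list and C1qa (0.35) and C1qb (0.37) of the second were called higher, while Cd4 (-0.10), Marco (-0.10) and Cd5l (-0.18) read below 0 and were not called. The mean of 2 of 5 dendritic markers was lower in females (-0.11, higher in 2 of 17 strains), with Itgax called lower (-0.27). Of 10 hepatocyte markers 4 were called higher (Pon1 0.38, Mbl2 0.36, Baat 0.30, Agxt 0.18), and of 3 endothelial markers Tek was called higher (0.33) and Tie1 (-0.26) and Flt4 (-0.12) lower. The part of these markers in the members' differences was not tested.

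On the direct arrays Psmb9 read lower in B6 than in D2 liver, in the same direction as its low B6 ratio against the embryo mix, though no member passed limma's test. The 4 values of Psmb9, 1 per sex and replicate, were -0.82 and -1.09 in females and -0.61 and -0.79 in males, a mean of -0.83 ± 0.20 or 1.78-fold lower (limma adjusted p = 0.0768). Tap2 read -0.36 and -0.65 in females and -0.47 and -0.67 in males (mean -0.54 ± 0.15, adjusted p = 0.145). Psmb10 read -0.44 and -0.52 in females and -0.07 and -0.28 in males (mean -0.33 ± 0.20, adjusted p = 0.366). H2-M3 read -0.21 and -0.50 in females and -0.05 and -0.26 in males (mean -0.25 ± 0.19, adjusted p = 0.377). All 4 values of these genes lay below 0, for which an exact sign-flip test gives 0.125, the smallest p that 4 values allow. Tap1 read -0.26 and -0.25 in females and -0.24 and 0.50 in males (mean -0.06 ± 0.38, adjusted p = 0.846). The test called 0.178% of all features, 0.0913% as higher and 0.0867% as lower in B6.

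The direction on these arrays is less firm than against the embryo mix. The forward array and the swapped array of replicate 1, once turned, correlated at -0.02 (males) and 0.13 (females) over all features, which are not independent of each other. Replicate 2 has 1 orientation only. Psmb9 was below 0 on all 8 arrays, the enriched ones included (-0.39 to -1.14), and so on both orientations of each replicate 1 pair. Tap2 was also below 0 on all 8 (-0.27 to -0.67), Psmb10 and H2-M3 on 7 of 8, and Tap1 on 6 of 8. Over the replicate 1 pairs alone, which hold both orientations, Psmb9 averaged -0.72 (1.64-fold lower), Tap2 -0.42, Psmb10 -0.26, Tap1 -0.25 and H2-M3 -0.13. The enriched arrays read -1.14 (female) and -0.90 (male) for Psmb9. With these 2 arrays added as values, Psmb9 (adjusted p = 0.00286), Tap2 (0.00948) and Psmb10 (0.0468) were called, while the sources used here do not say what the enrichment was.

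**Figure D5:**
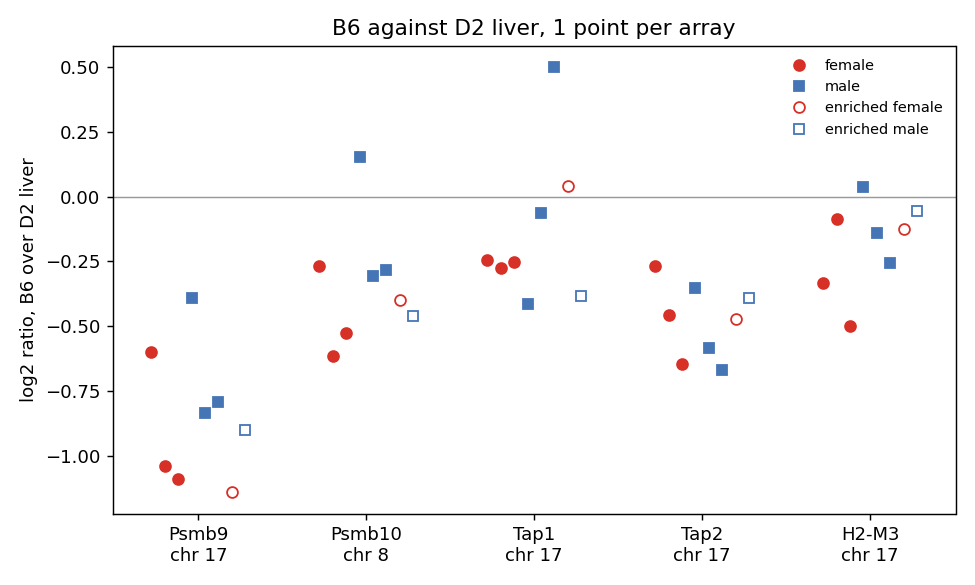
Log2 ratio of B6 over D2 liver (y axis) for each member (x axis), with 1 point per array: filled circles are females, filled squares males, and open symbols the arrays of enriched RNA. Psmb9 and Tap2 are below 0 on all 8 arrays, and Tap1 has 1 male array at 0.50.

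Set against Psmb10, Psmb9 lay lower by 0.50 in B6 over D2, in 4 of 4 values (-0.50 ± 0.08), and H2-M3 higher by 0.08 ± 0.10, also in 4 of 4. With 4 values the exact sign-flip test cannot go below p = 0.125, which both reached, so it could call no member. Of the 61 measured genes of the pathway lists besides the members, limma called 0 between B6 and D2, with 11 at an unadjusted p under 0.05. Over all features 13.2% were under that p. The medians were -0.14 for the 14 further MHC region genes, -0.05 for 14 interferon-induced genes, -0.17 for 7 regulatory particle genes (0 of 7 above 0) and 0.007 over all features. The hepatocyte markers had a median of -0.36, near the mean of Psmb10, with 3 of 10 above 0 and Mbl2 (-0.60), Agxt (-0.50) and Mat1a (-0.47) lowest, and none was called. The medians of the 4 lymphocyte and the 4 macrophage markers were -0.10 and -0.03. The part of these markers in the members' values was not tested. The parental difference did not differ detectably between the sexes for any member (female minus male -0.39 for Tap1, -0.30 for Psmb10, -0.25 for Psmb9, -0.20 for H2-M3 and 0.06 for Tap2, limma adjusted p 0.670 or higher). Of all features 0 were called for this sex term, against 1673 at an unadjusted p under 0.05.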

How the data were processed

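The authors deposited 1 log ratio per probe for each of 82 arrays, and neither unit, scanner nor normalization is known from the sources used here. These deposited values were read as log10 because 94 of them equal 2 or -2, none of them in a member, and were multiplied by 3.32 to log2. Arrays with liver (or B6) in channel 1 were turned by -1. An extra BXD11 female array, titled as a swap but with liver in channel 1 by its channel labels, was taken by channel. No intensities were analysed here, and the number of arrays limits the precision. Names came from the platform annotation (3290 probes with 1 symbol, 4 with several) and, for 170 probes, from RefSeq (GRCm38.p6); 18476 probes were unnamed but tested.

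Arrays were averaged within orientation, then over orientations. Limma 3.58.1 in R 4.3.3 (lmFit, eBayes) tested 13 strain means against 0, the sexes on 34 values with strain as a block, strains by a moderated F on 26 values, and B6 against D2 on 4 values. P-values were adjusted by Benjamini-Hochberg over 21915 features at 0.05, and liver against embryo also required an absolute log2 of 1. The embryo mix is 1 reference whose own spread is outside the test. Permutation tests used SciPy 1.17.1 with 100000 resamples, or all of them under 10 values. The fits were tested on simulated data. Members and lists were chosen with earlier results of these data known. Named were the members, up to 4 called genes per list and comparison, and the 3 named genes most like each member. Alternatives covered centring, scaling, normalization, probes, eBayes settings, log base, orientation, sex, strains, replicates and pairing. Leaving out BXD8 and BXD27, and the alternatives for the sex term of B6 against D2, were added after seeing the data. Replicate numbers did not count as pairing: with 2 pairs, male and female deviations of the B6 and D2 replicates correlated at 0.32.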

Additional observations from a re-analysis of the deposited data

Results flagged for a closer look

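Among 30 groups of 4 to 10 arrays or values tested for a lone extreme, 4 had one, where chance gives about 5%. Tap1 had a single low array in BXD15 females (-0.061) and in BXD21 females (-0.29), each with liver in channel 1, and H2-M3 had its low array in BXD15 females (0.62), on another array with liver in channel 2. In B6 over D2, Tap1 read 0.50 in the replicate 2 males, against -0.26 to -0.24 in the other 3 values.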

How the results depend on the processing

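Psmb9 was called higher in liver than embryo in 25 of 26 settings and Tap1, Tap2 and H2-M3 in 0; if the deposited values are log2, Psmb9 is 0.53 and 205 features, not 3037, pass the size limit. For the sexes, the 4 strains with 1 orientation alone called 0 features (main count 7381) and turned Tap1 (0.046), Psmb9 (-0.072) and Psmb10 (-0.10). Strain calls (262) became 164 with liver in channel 1 only, 101 in channel 2 only, 5589 with all 17 strains, whose orientations differ, and 139 (without BXD15) to 278 with strains left out in turn; in channel 2 only Psmb9 lost its call (adjusted p = 0.229), as with trend and robust settings (0.0571). B6 and D2 calls (39) became 74 with scaling, 24 with quantile normalization, 0 with trend and robust settings, 25 over replicate 1 pairs, 510 with enriched arrays and 0 to 29 with a value left out in turn, where Tap1 ran from -0.25 to 0.0030 and changed sign. With scaling, which stretches the narrower direct arrays, Psmb9 read -1.51 (adjusted p = 0.0260). Of 10 correlations 8 passed, against 2 with the first gene from males and the second from females, 6 with these sexes exchanged, 9 in males and 2 in females; of 5 male and female agreements 5 passed, against 1 in channel 2 only. The causes were not tested. With the replicate number as a block (replicate block), 7837 features were called between the sexes and 0 between B6 and D2, where the block is also a dye term; the numbers do not pair the samples. The embryo mix, the number of arrays and the missing intensities limit all values.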
